A study of Mus musculus with 13 samples.

Results

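The matrix proteoglycans are 10 genes whose protein cores carry, or are related to cores that carry, glycosaminoglycan chains in the extracellular matrix. They were chosen by gene symbol from the 46958 genes of a count table of mouse kidney glomeruli: Dcn, Bgn, Lum, Fmod, Ogn, Prelp, Aspn, Vcan, Hspg2 and Agrn. All 10 were in the table, and 9 had enough counts to be tested. Lum was the exception. A glomerulus is the capillary tuft that filters blood in the kidney, and messenger RNA was sequenced from tufts that had been isolated with magnetic beads.

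The 13 libraries came from 3 genotypes, all from animals aged 6 months on a background given as mixed C57/BL6x129/SVxBALB/c. The LCDD group, whose genotype is labelled kFRA (LCDD), had 4 libraries. LCDD stands for light chain deposition disease, a kidney disorder caused by deposits of light chains from a single clone of plasma cells. The group labelled DH-LMP2A had 4 libraries, and the wild-type group (WT) had 5. The labels do not describe the DH-LMP2A alleles, and they do not say whether the LCDD mice carry them as well. RNA of 3 mice was pooled for each library, except WT replicates 3, 4 and 5, which were 1 mouse each. Whether the pools share animals or litters is not stated, so p-values measure the spread between these libraries only.

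Library totals ran from 16687509 to 30587890 counts. Podocyte, mesangial and endothelial markers were detected in every genotype, and no marker list had a gene at 0 across a whole genotype. Sample titles carry a code, of unstated meaning, that takes 4 values and recurs across genotypes; it is called the title code here and its values are numbered 1 to 4. WT has no library of title code 2. Its single-mouse libraries, replicates 3, 4 and 5, are all of title code 4 and are its only libraries of that code. Leaving them out also removes code 4 from WT, so pooling and title code cannot be told apart there. Summed tubule markers reached 1656, 3245 and 3453 CPM (counts scaled by library size) in the 3 libraries of title code 1 and ran from 296 to 2129 CPM in the other 10. Transcripts of 4 Y-linked genes summed to 18.0 to 220.05 CPM in LCDD, 68.3 to 223 CPM in DH-LMP2A and 0 to 27.0 CPM in WT. Comparisons with WT therefore also set libraries of different sex composition against each other. Under title codes 1 to 4, the sums were 174, 21.1, 220.05 and 18.0 CPM in the LCDD pools. In the DH-LMP2A pools of the same codes they were 111, 223, 68.3 and 126 CPM, so sex composition differed within codes too.

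Small leucine-rich proteoglycans, the family of Dcn, Bgn, Aspn, Fmod, Lum, Prelp and Ogn, have a horseshoe-shaped core of leucine-rich repeats. Many of them bind collagen fibrils and growth factors. Versican (Vcan) is a large proteoglycan that binds hyaluronan in loose matrix. Perlecan (Hspg2) and agrin (Agrn) carry heparan sulfate chains in basement membranes, and agrin is a main heparan sulfate proteoglycan of the glomerular filtration barrier. In glomerular scarring, proteoglycans are known to accumulate with collagens in the mesangium, the matrix and cells that hold the capillary loops together.

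On a scale corrected for gene length, 3 genes accounted for nearly all of the proteoglycan message. Levels were computed as TPM, counts per exon base scaled to the same total in every library, from the deposited counts and exon lengths. Bgn, which encodes biglycan, had the highest mean level, 354 ± 118 TPM (SD, n = 13), or 51.5% of the TPM of the 10 genes. Agrn followed at 210 ± 72.3 TPM (SD, n = 13) and 30.5%, and Hspg2 at 111 ± 34.1 TPM (SD, n = 13) and 16.1%. Single libraries of these neighbours in the order overlapped: Bgn ran from 226 to 621 TPM, Agrn from 99.3 to 312 TPM and Hspg2 from 66.3 to 184 TPM.

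The other 7 genes were far lower in TPM and did not overlap those 3 in any library. Their means over the 13 libraries were 4.04 for Ogn, 2.71 for Prelp, 2.70 for Dcn, 1.63 for Aspn, 1.41 for Fmod, 0.472 for Vcan and 0.0492 TPM for Lum. Neighbours among Ogn, Prelp, Dcn, Aspn and Fmod had overlapping ranges, the lowest library of the group at 0.168 TPM (Aspn) and the highest at 10.2 TPM (Dcn). Lumican (Lum), a collagen-binding member of cornea and connective tissue, had 10 counts in all 13 libraries together and at most 2 in any of them. That lies below the floor of 3 counts taken as the smallest detectable level, so no comparison of Lum was possible at this depth.

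**Figure D1:**
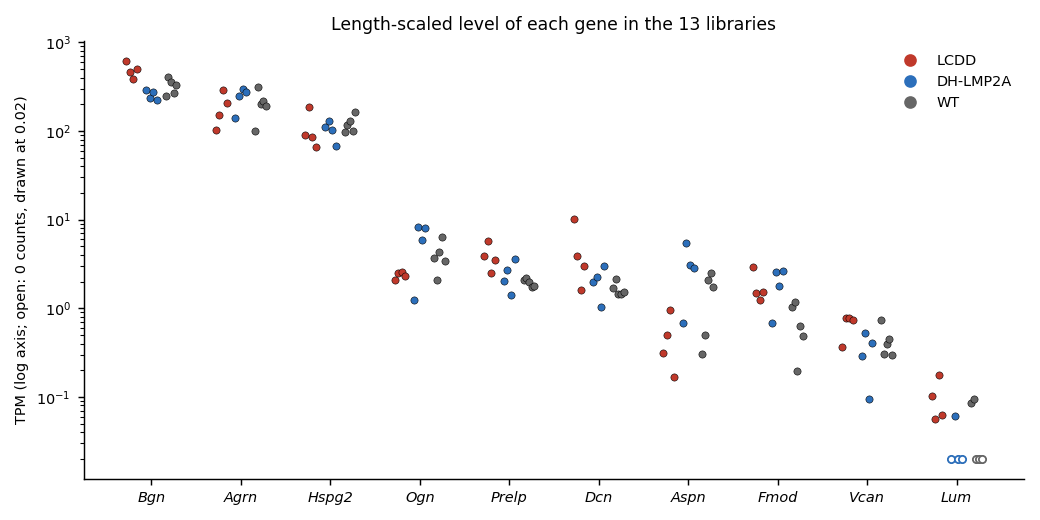
Level of each of the 10 genes in TPM (log axis) in the 13 libraries, coloured by genotype, with open points for libraries at 0 counts. Bgn, Agrn and Hspg2 lie at 66.3 TPM or above in every library, and the other 7 genes at 10.2 TPM or below.

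The regions around the annotated starts of these genes are shown for the 3 abundant members and for Aspn, the member with the largest fold difference between genotypes. The sequences are from RefSeq on GRCm38.p6, the build of the deposited table, and run 5′ to 3′ on the gene's strand from 250 bases before the start to 50 bases after it. Capitals mark matches, on either strand, to a pair of motifs. One is the GC box, spelled GGGCGG. The other is the TATA box, spelled TATAAA. Matches that overlap are merged into a single run of capitals. The Bgn window is chrX:73483351-73483650 on the + strand, the Hspg2 window chr4:137468553-137468852 on the + strand, the Agrn window chr4:156197439-156197738 on the - strand, and the Aspn window chr13:49544193-49544492 on the + strand.
Bgn: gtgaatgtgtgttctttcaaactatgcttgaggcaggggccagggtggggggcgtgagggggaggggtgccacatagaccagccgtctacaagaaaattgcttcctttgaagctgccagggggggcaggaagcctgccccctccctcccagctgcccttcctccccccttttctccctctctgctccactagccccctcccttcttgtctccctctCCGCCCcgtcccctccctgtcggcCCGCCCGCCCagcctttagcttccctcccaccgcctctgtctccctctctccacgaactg
Hspg2: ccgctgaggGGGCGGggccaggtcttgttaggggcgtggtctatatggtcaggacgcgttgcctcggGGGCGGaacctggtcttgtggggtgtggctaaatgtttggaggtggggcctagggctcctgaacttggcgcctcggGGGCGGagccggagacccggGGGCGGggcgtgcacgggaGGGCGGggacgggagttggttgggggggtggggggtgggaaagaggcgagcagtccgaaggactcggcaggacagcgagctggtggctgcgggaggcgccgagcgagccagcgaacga
Agrn: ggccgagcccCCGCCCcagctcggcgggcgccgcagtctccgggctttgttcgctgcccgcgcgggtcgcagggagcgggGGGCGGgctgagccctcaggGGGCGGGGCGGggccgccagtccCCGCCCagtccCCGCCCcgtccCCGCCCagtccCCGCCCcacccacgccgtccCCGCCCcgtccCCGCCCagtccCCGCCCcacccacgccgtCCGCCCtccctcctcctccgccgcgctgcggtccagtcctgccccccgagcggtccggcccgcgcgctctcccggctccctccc
Aspn: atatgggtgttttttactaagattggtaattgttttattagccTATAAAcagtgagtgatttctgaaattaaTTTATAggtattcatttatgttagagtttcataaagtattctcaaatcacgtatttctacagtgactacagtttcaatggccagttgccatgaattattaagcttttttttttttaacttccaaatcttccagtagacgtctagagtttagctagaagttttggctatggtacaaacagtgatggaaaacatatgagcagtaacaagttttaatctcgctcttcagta

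The windows differed widely in base composition. Agrn had 83.3% G+C, 42 CG dinucleotides and 12 GC boxes, Hspg2 had 70.3% G+C and 5 GC boxes, and Bgn had 63.7% G+C and 3 GC boxes. Aspn, a rarer message, had 31% G+C, 0 GC boxes and 2 TATA matches, which begin 207 and 178 bases before the start. Among 32851 mouse windows of the same 300 bases, the median was 52.7% G+C, 35.7% held a GC box and 13.6% a TATA match. CATTCC, the letters bound by TEAD factors, was also searched on both strands, and was in 14.7% of all windows. None of the 4 printed held it, and among the others the Ogn window held 1 match, beginning 86 bases before the start, beside 2 overlapping TATA matches. Windows were found for 8 of the 10 genes, with a second, internal Agrn start at 61.3% G+C; Fmod had 51%, Ogn 42.3%, Prelp 55.3% and Vcan 61%. Dcn and Lum were not matched. A match to these letters is a description and not a binding site.

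Bgn rose in LCDD glomeruli against DH-LMP2A glomeruli, to about double the level. Biglycan binds collagen and transforming growth factor beta, and as a soluble fragment of matrix it is a ligand of the receptors Tlr2 and Tlr4. Its gene lies on chromosome X at 73483602 to 73495933 (+ strand), with 7 exon blocks. The 4 LCDD libraries had 1383, 912, 678 and 913 CPM (replicates 1 to 4), scaled by the trimmed mean of M values (TMM). The 4 DH-LMP2A libraries had 623, 418, 487 and 396 CPM. WT libraries had 541, 799, 675, 488 and 619.6 CPM.

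Every LCDD library was above every DH-LMP2A library for Bgn, and LCDD replicate 1 was the highest of all 13. Mean levels with their SD were 971 ± 296 CPM for LCDD (n = 4), 481 ± 103 CPM for DH-LMP2A (n = 4) and 625 ± 121 CPM for WT (n = 5). LCDD exceeded DH-LMP2A by 1.01 ± 0.23 (SE) on the log2 scale, with an adjusted p of 0.0448 by edgeR's quasi-likelihood test. Bgn was the only one of the 9 tested genes called in this comparison at an adjusted p under 0.05, where 2.00% of all 16738 tested genes were called. It was also the only one whose groups did not overlap, against 7.62% of all tested genes. The median log2 fold change was 0.14 over the 9 genes and -0.0061 over all genes tested. An unadjusted edgeR p under 0.05 was reached by 6 of the 9, against 13.1% of all tested genes. Of those, Dcn, Bgn, Prelp and Vcan were higher in LCDD, and Ogn and Aspn lower. The Aspn test is not independent of the filter, as set out below, so its place among the 6 is description only.

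With the title code as a block in the fit, the Bgn difference was 1.01 ± 0.22 (SE) on the log2 scale, with an edgeR adjusted p of 0.0255. That fit called 6.10% of all tested genes. Within title codes 1 to 4, the LCDD pool exceeded the DH-LMP2A pool of the same code by 1.15, 1.13, 0.48 and 1.21 in log2 CPM. The direction was shared by 4 of 4 codes, and the share of all tested genes with such agreement is not given. The call was close to the threshold: leaving out LCDD replicates 1, 2 or 4 gave edgeR adjusted p of 0.116, 0.0992 and 0.0801. Without DH-LMP2A replicates 2, 3 or 4 it was 0.16, 0.124 and 0.147, and without WT replicates 3, 4 or 5 it was 0.0724, 0.0566 and 0.0716. WT libraries enter this comparison only through the filter, the TMM factors, the shared estimate of spread and the adjustment of p-values. A covariate of sex-linked transcripts left the log2 difference at 1.01, with an edgeR adjusted p of 0.0654.

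Against WT, Bgn in LCDD had a log2 fold change of 0.64 ± 0.22 (SE) and an edgeR adjusted p of 0.205, and the groups overlapped: LCDD replicate 3, at 678 CPM, lay below WT replicate 2, at 799 CPM. Within title codes 1, 3 and 4 the difference from WT was 1.35, -0.24 and 0.63 in log2 CPM, so it changed sign under code 3. DH-LMP2A differed from WT by -0.38 ± 0.22 (SE) in log2 terms (edgeR adjusted p = 0.519).

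The sum of mesangial cell markers moved with Bgn, though unevenly by gene. The summed level of 5 mesangial markers (Pdgfrb, Itga8, Des, Gata3 and Serpine2) was 6571, 3984, 3485 and 4436 CPM in the LCDD libraries. It was 3175, 2485, 2598 and 2373 CPM in DH-LMP2A, and 2803 to 3537 CPM in WT. As for Bgn, LCDD replicate 1 was highest and no LCDD library overlapped DH-LMP2A. Log2 differences of LCDD from DH-LMP2A were 0.14 for Pdgfrb, 0.88 for Itga8, 0.52 for Des, 0.49 for Gata3 and 1.29 for Serpine2. Only Serpine2 was called (edgeR adjusted p = 0.0446), and Pdgfrb had an edgeR adjusted p of 0.831. In bulk tissue, more cells of a type and more RNA per cell cannot be told apart, and the part of the mesangial markers in the Bgn difference was not tested. The gene whose log2 CPM followed Bgn most closely over the 13 libraries, among 14524 compared, was Serpine2 (Pearson r = 0.963), itself one of those 5 markers, followed by Wisp1 (r = 0.957), a secreted matricellular protein. Tlr4 and Tlr2, the receptors named above, had log2 differences of 0.95 ± 0.39 (SE) and 0.46 ± 0.40 (SE) between LCDD and DH-LMP2A, at edgeR adjusted p of 0.301 and 0.701. The 2 correlations are descriptive, since the libraries share depth, title codes and cell mixture.

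**Figure D2:**
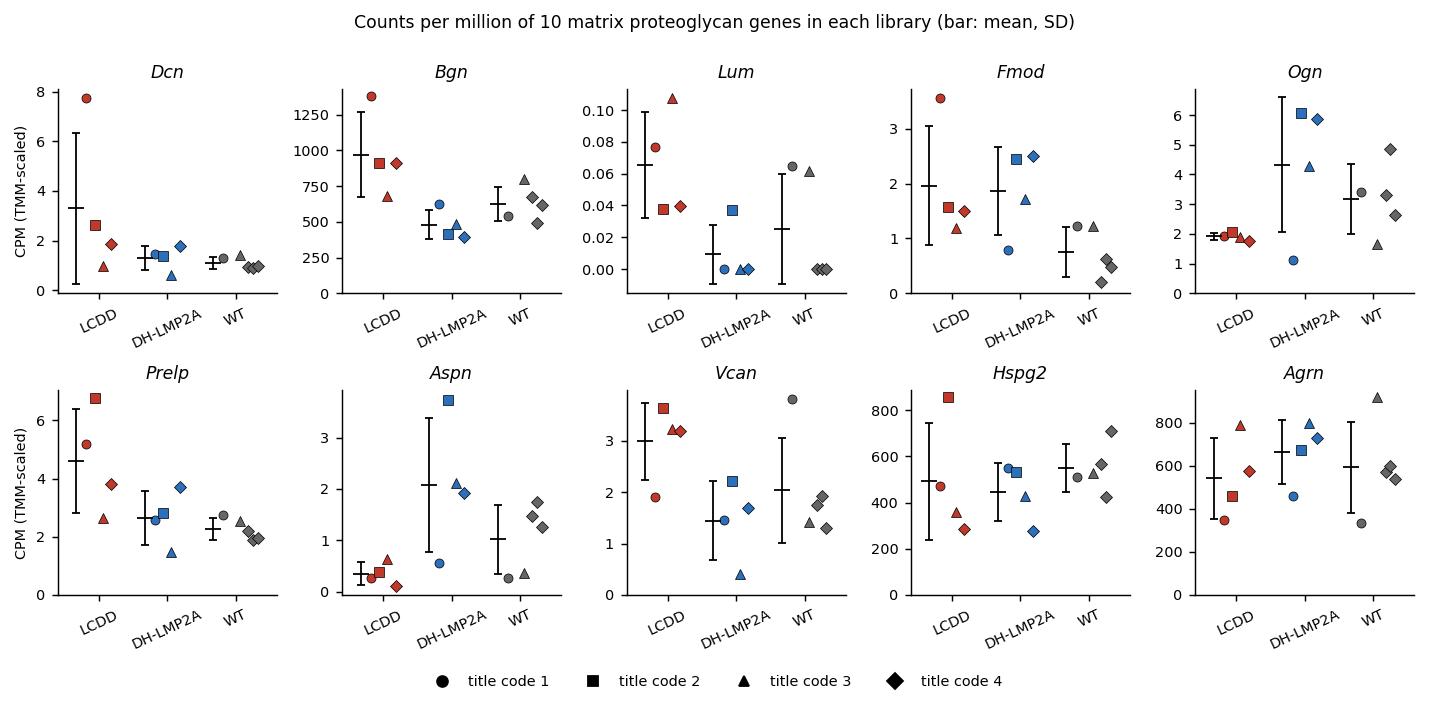
TMM-scaled CPM of each of the 10 genes in every library (linear axes, 1 panel per gene; symbol: title code; horizontal line and bar: genotype mean and SD). For Bgn the 4 LCDD points, 678 to 1383 CPM, lie above the 4 DH-LMP2A points, 396 to 623 CPM; in the other 8 tested genes the genotypes overlap.

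Decorin, the close relative of biglycan that coats collagen fibrils, was scarce. Dcn (chromosome 10, 97479500 to 97518162, + strand) had 7.75, 2.63, 0.969 and 1.85 CPM in LCDD, from 202, 70, 18 and 47 counts. DH-LMP2A libraries had 1.46, 1.37, 0.628 and 1.79 CPM, and WT libraries 1.29, 1.42, 0.920, 0.894 and 0.973 CPM. LCDD replicate 1 stood above all others, and the other LCDD libraries overlapped both groups. On the log2 scale LCDD lay 1.33 ± 0.53 (SE) above DH-LMP2A (edgeR adjusted p = 0.284) and 1.59 ± 0.50 (SE) above WT (edgeR adjusted p = 0.159), and neither difference passed. The LCDD SD was 92.1% of the mean.

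Asporin is a relative of decorin and biglycan with a stretch of aspartate residues in place of the usual chain attachment site. Aspn (chromosome 13, 49544443 to 49567557, + strand) had 0.268, 0.376, 0.646 and 0.118 CPM in LCDD, from 7, 10, 12 and 3 counts. In DH-LMP2A it had 0.561, 3.74, 2.11 and 1.92 CPM, from 15, 101, 37 and 43 counts, and in WT 0.259, 0.370, 1.48, 1.74 and 1.26 CPM. LCDD was low throughout, and only its replicate 3 overlapped DH-LMP2A, at replicate 1. The filter asked for 0.396 CPM in 4 libraries of any genotype, and Aspn reached that level in all 4 of DH-LMP2A, 1 of LCDD and 3 of WT. No genotype but DH-LMP2A, where Aspn was highest, had enough such libraries alone. Its tests against DH-LMP2A are therefore not independent of the filter and are given as description.

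On the log2 scale Aspn differed by -2.58 ± 0.71 (SE) between LCDD and DH-LMP2A, with an edgeR adjusted p of 0.0916. With the title code as a block it was -2.37 ± 0.60 (SE), at an edgeR adjusted p of 0.044, again as description only. LCDD was lower within all 4 codes, by -0.87, -3.05, -1.59 and -3.31 in log2 CPM. Against WT the log2 fold change was -1.56 ± 0.69 (SE), at an edgeR adjusted p of 0.38. That value rested on the 3 single-mouse libraries, which are all of title code 4: leaving them out gave 0.12 ± 0.81 (SE) and an edgeR adjusted p of 0.982. Within title codes 1, 3 and 4 the difference from WT was 0.040, 0.68 and -2.95 in log2 CPM.

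Osteoglycin, also called mimecan, is encoded near Aspn on chromosome 13 (Ogn, 49608071 to 49624500, + strand). Ogn had 1.92, 2.07, 1.88 and 1.77 CPM in LCDD, 1.12, 6.07, 4.28 and 5.86 CPM in DH-LMP2A, and 3.40, 1.67, 3.32, 4.87 and 2.63 CPM in WT. The LCDD libraries were nearly alike, with an SD of 6.38% of their mean, while DH-LMP2A replicate 1 lay below all 4 of them and the other 3 DH-LMP2A libraries above. LCDD differed from DH-LMP2A by -1.18 ± 0.44 (SE) in log2 terms, which did not pass (edgeR adjusted p = 0.236). When DH-LMP2A replicate 1, the library against that direction, was left out, Ogn was called at -1.50 ± 0.30 (SE, edgeR adjusted p = 0.0248). Aspn was then at -2.90 ± 0.67 (SE, edgeR adjusted p = 0.0415), as description only. That fit called 484 of all tested genes, against 334 with every library kept. Ogn was called in 2 of 27 alternatives.

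DH-LMP2A replicate 1 had the highest summed tubule markers of its genotype, 3245 CPM. It had the lowest summed smooth muscle markers, 179 CPM against 335 to 438 CPM in the other DH-LMP2A libraries. Smooth muscle markers (Myh11, Acta2, Cnn1 and Tagln) summed to 118 to 299.5 CPM in LCDD and 164 to 298 CPM in WT. Among 8 fibroblast markers, Dpt had at most 2 and Mfap5 at most 3 counts in any library. The list summed to 1007 to 1695 CPM in LCDD, 872 to 1153 CPM in DH-LMP2A and 956 to 1276 CPM in WT. Its genes were split: log2 differences of LCDD from DH-LMP2A were 0.77 for Pi16 and 0.58 for Pdgfra. They were -1.57 for Col1a1, -0.22 for Col1a2, -0.21 for Col3a1 and -0.16 for Gli1, and edgeR called none of these. The part of smooth muscle, fibroblast and tubule RNA in the Aspn and Ogn values was not tested.

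Other genes that lie beside Aspn, Ogn, Lum and Prelp were read for comparison. Osteomodulin (Omd), which lies between Aspn and Ogn, had 2 to 22 counts per library. Its log2 difference between LCDD and DH-LMP2A was -0.65 ± 0.62 (SE), with an edgeR adjusted p of 0.731. Ecm2, on the other side of Aspn, averaged 19.2 ± 5.61 CPM over the 4 LCDD libraries and 17.4 ± 4.82 CPM over the 4 DH-LMP2A libraries (SD), with an edgeR adjusted p of 0.863. Cenpp, on the opposite strand, spans both Aspn and Ogn without sharing an exon base with either, and had 3 to 24 counts per library. Kera and Epyc, the neighbours of Lum on chromosome 10, had 0 counts in all 13 libraries, and Optc, beside Prelp, had at most 11.

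Prelp, a heparin- and collagen-binding member found near basement membranes, lies on chromosome 1 (133910304 to 133921414, - strand). It had 5.18, 6.77, 2.64 and 3.82 CPM in LCDD, 2.58, 2.81, 1.48 and 3.71 CPM in DH-LMP2A, and 2.75, 2.53, 2.20, 1.88 and 1.95 CPM in WT. LCDD replicates 1, 2 and 4 were above every library of the other genotypes, and LCDD replicate 3 was within their range. LCDD was higher on the log2 scale by 0.80 ± 0.32 (SE) against DH-LMP2A (edgeR adjusted p = 0.287) and by 1.03 ± 0.30 (SE) against WT (edgeR adjusted p = 0.125), without passing. DESeq2, another count model, called the difference from WT, with an adjusted p of 0.0399. The antisense gene Gm15851 shares 350 exon bases with Prelp and had at most 1 count in any library.

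Fibromodulin, which binds collagen and carries keratan sulfate, lies close by on chromosome 1 (Fmod, 134037254 to 134048277, + strand). Fmod had 3.57, 1.58, 1.18 and 1.50 CPM in LCDD, 0.785, 2.44, 1.71 and 2.51 CPM in DH-LMP2A, and 1.23, 1.23, 0.200, 0.626 and 0.486 CPM in WT. LCDD and DH-LMP2A covered much the same range, and both extended above WT. Log2 fold changes were 0.077 ± 0.53 (SE) between LCDD and DH-LMP2A (edgeR adjusted p = 0.969) and 1.38 ± 0.52 (SE) for LCDD over WT (edgeR adjusted p = 0.259). For DH-LMP2A over WT the value was 1.30 ± 0.52 (SE, edgeR adjusted p = 0.324). The lowest WT values were those of the 3 single-mouse libraries, all of title code 4. Without these, LCDD over WT was 0.63 ± 0.55 (SE, edgeR adjusted p = 0.939). Within title code 1 the LCDD pool was higher than the DH-LMP2A pool by 2.07 in log2 CPM, and within the other 3 codes it was lower, by -0.60, -0.50 and -0.71.

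Versican message was low for a gene with 14462 exon bases. Vcan (chromosome 13, 89655312 to 89742509, - strand) had 1.92, 3.65, 3.23 and 3.19 CPM in LCDD, 1.46, 2.22, 0.399 and 1.70 CPM in DH-LMP2A, and 3.82, 1.42, 1.76, 1.92 and 1.30 CPM in WT. LCDD replicates 2, 3 and 4 were above all DH-LMP2A libraries, and replicate 1 was not. LCDD exceeded DH-LMP2A by 1.04 ± 0.46 (SE) on the log2 scale without passing the test (edgeR adjusted p = 0.35), and its direction was shared within 4 of 4 title codes, at 0.38, 0.70, 2.78 and 0.88 in log2 CPM. The difference from WT was 0.54 ± 0.43 (SE) in log2 terms (edgeR adjusted p = 0.734).

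**Figure D3:**
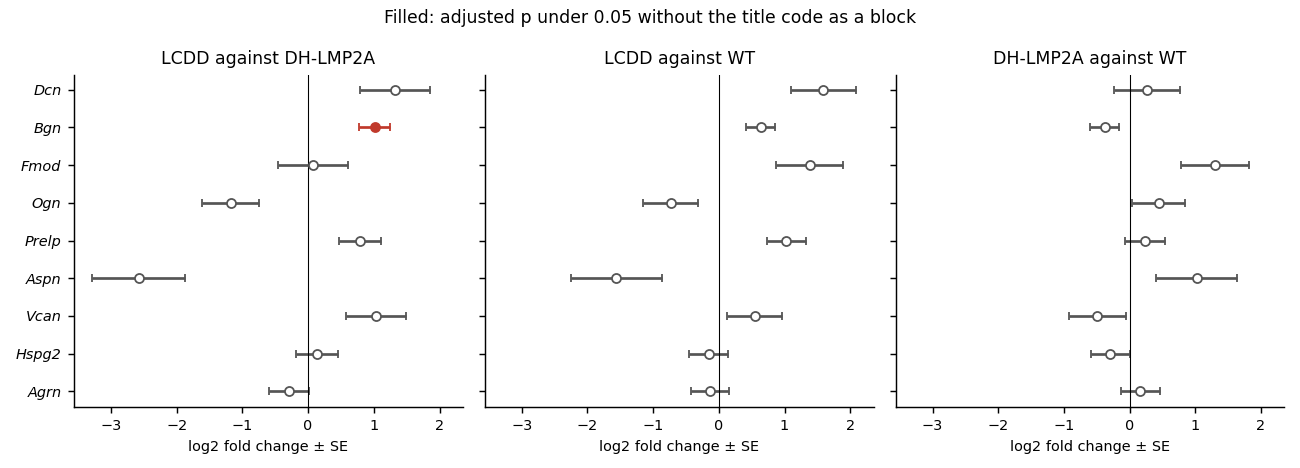
Log2 fold change and SE of the 9 tested genes in each of the 3 genotype comparisons, from the edgeR fit without a block; filled points have an adjusted p under 0.05. Only Bgn in LCDD against DH-LMP2A, at 1.01, is filled, and Aspn has the lowest value, at -2.58.

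The basement membrane proteoglycans Hspg2 and Agrn were not called in any of the 3 comparisons. Perlecan links laminins, nidogens and collagens, and its gene lies on chromosome 4 (137468769 to 137570630, + strand) with 97 exon blocks. Hspg2 had 470.3, 856, 359 and 285 CPM in LCDD, 552, 533, 427 and 278 CPM in DH-LMP2A, and 509.8, 528, 569, 425 and 709 CPM in WT. LCDD held both the highest library, replicate 2, and one of the lowest, replicate 4. In log2 terms the difference of LCDD was 0.14 ± 0.32 (SE) against DH-LMP2A (edgeR adjusted p = 0.897) and -0.15 ± 0.30 (SE) against WT (edgeR adjusted p = 0.934), and its sign against DH-LMP2A turned to -0.30 without LCDD replicate 2.

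Endothelial markers (Pecam1, Kdr, Emcn, Ehd3 and Flt1) matched Hspg2 in its highest and lowest libraries, but not throughout. Their sum was 9136, 10187, 5096 and 4306 CPM in the LCDD libraries and 8013, 5118, 3734 and 2961 CPM in DH-LMP2A. In WT it ran from 6068 to 10165 CPM. LCDD replicate 2 led in both measures, and DH-LMP2A replicate 4 was lowest in both. LCDD replicate 1, however, had 9136 CPM of the markers with Hspg2 at 470.3 CPM. DH-LMP2A replicate 2 had 5118 CPM of the markers with Hspg2 at 533 CPM. The genes most alike to Hspg2 over the 13 libraries were Cmip (Pearson r = 0.963) and Arhgap31 (r = 0.931).

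Agrin is known in the kidney as a heparan sulfate proteoglycan of the glomerular basement membrane and in muscle as the organizer of the nerve endplate. Agrn (chromosome 4, 156165290 to 156197488, - strand) had 346, 459, 788 and 574 CPM in LCDD, 458, 672, 800.1 and 729.9 CPM in DH-LMP2A, and 334, 921, 571, 599 and 539 CPM in WT. For LCDD the log2 fold change was -0.30 ± 0.31 (SE) against DH-LMP2A (edgeR adjusted p = 0.751) and -0.13 ± 0.29 (SE) against WT (edgeR adjusted p = 0.945). Between DH-LMP2A and WT it was 0.17 ± 0.29 (SE), with an edgeR adjusted p of 0.853.

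Agrn levels separated by title code. The 3 libraries of code 1, 1 of each genotype, had 334 to 458 CPM, and the 3 of code 3 had 788 to 921 CPM, with no overlap. Such a separation of code 1 from code 3 was common, found in 32.3% of all tested genes. Codes 2 and 4 lay between, at 459 to 672 and 539 to 729.9 CPM. Within codes 1 to 4 the LCDD pool was below the DH-LMP2A pool by -0.40, -0.55, -0.023 and -0.35 in log2 CPM, and the fit with the code as a block gave -0.34 ± 0.12 (SE), with an edgeR adjusted p of 0.137.

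Summed podocyte markers (Nphs1, Podxl, Wt1 and Synpo) were also low under code 1, and in LCDD replicate 2 of code 2. They were 5301, 10099, 22195 and 17840 CPM in the LCDD libraries and 11471, 14885, 21853 and 20489 CPM in DH-LMP2A. WT replicate 1, of code 1, had 11005 CPM and the other WT libraries 17558 to 23928 CPM. Their part in the Agrn values was not tested, and a difference between title codes cannot be told apart from one in cell content here. Among the genes most alike to Agrn was Ipo4 (Pearson r = 0.969).

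**Figure D4:**
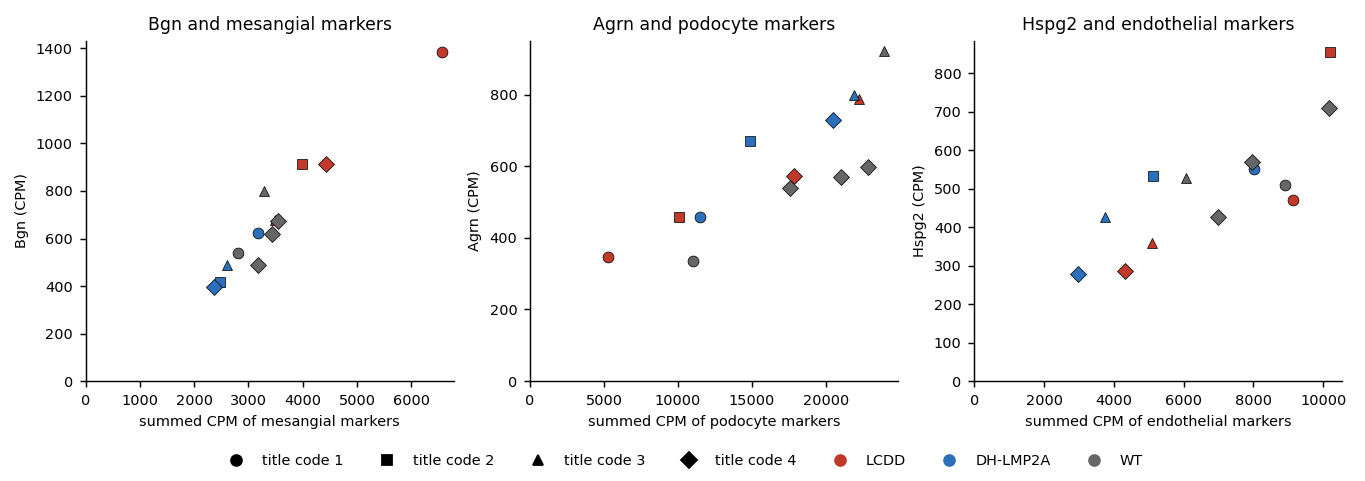
Level of Bgn, Agrn and Hspg2 in each library (vertical axes, TMM-scaled CPM) against the summed CPM of mesangial (5 genes), podocyte (4 genes) or endothelial (5 genes) markers in the same library (colour: genotype; symbol: title code). LCDD replicate 1 is the highest point for Bgn, at 1383 CPM with 6571 CPM of mesangial markers, and the lowest for podocyte markers, at 5301 CPM.

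**Figure D5:**
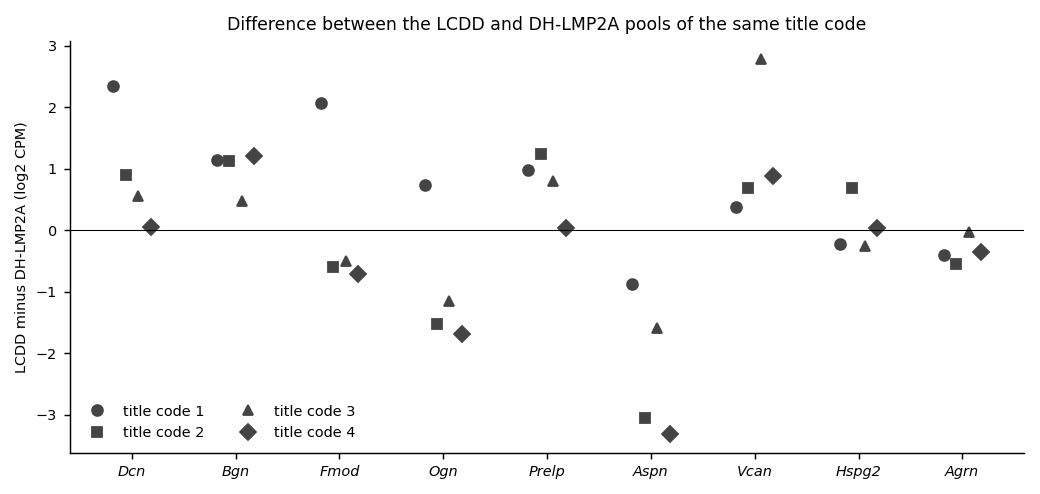
Difference between the LCDD and DH-LMP2A pools of the same title code, in log2 CPM, for the 9 tested genes. All 4 differences are above 0 for Bgn, Dcn, Prelp and Vcan and below 0 for Aspn and Agrn. Some of these are close to 0: under code 4, 0.048 for Dcn and 0.041 for Prelp, and under code 3, -0.023 for Agrn. The sign differs between codes for Fmod, Ogn and Hspg2. The share of all tested genes with 4 like signs is not given.

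In the comparison of LCDD with WT, edgeR called 0 of the 9 tested genes, where 1.84% of all tested genes were called. At an unadjusted p under 0.05 there were 5, against 12.0% of all tested genes, and DESeq2 called 1, Prelp, against 4.34% of all. None of the 9 had groups that did not overlap, against 4.59% of all tested genes. Over the 9 genes the median log2 fold change was 0.54, and 0.010 over all genes tested. DH-LMP2A against WT likewise gave 0 calls by edgeR, with 1 gene at an unadjusted p under 0.05 (Fmod), against 12.5% of all tested genes, and 0 by DESeq2, against 2.74% of all. In that comparison 0.627% of all tested genes were called and 4.97% did not overlap, against 0 of the 9, and the median log2 fold changes were 0.23 and 0.00089. The 3 comparisons share libraries and are not independent of each other.

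The genes that build, bind and cut proteoglycans were read from 11 lists with 123 genes, of which 99 were tested. LCDD against DH-LMP2A gave 3 calls upward and 1 downward, where 1.30% of all tested genes were called higher and 0.693% lower. The median log2 fold change of the 99 was 0.053, and 25 of them had an unadjusted edgeR p under 0.05, against 13.1% of all tested genes. Nid1 and Nid2, the nidogens that bridge laminin and collagen networks and bind perlecan, both rose. Nid1 went from 324 ± 61.5 CPM in DH-LMP2A to 611 ± 197 CPM in LCDD (SD, n = 4 each), a log2 rise of 0.92 ± 0.21 (SE), with an edgeR adjusted p of 0.0448. Nid2 went from 84.8 ± 11.6 to 153 ± 38.6 CPM (SD, n = 4 each), a log2 rise of 0.85 ± 0.17 (SE), at an edgeR adjusted p of 0.0219. The lists hold 6 other basement membrane genes, among them the laminin chains Lama5, Lamb2 and Lamc1, and none of those was called without the block.

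Adamts1, a secreted protease that cuts versican and related cores, rose from 289 ± 30.5 CPM in DH-LMP2A to 704 ± 292 CPM in LCDD (SD, n = 4 each). That is 1.28 ± 0.26 (SE, edgeR adjusted p = 0.0276) on the log2 scale, and it was also called against WT (322 ± 65.2 CPM, SD, n = 5), at 1.13 ± 0.25 (SE, edgeR adjusted p = 0.0342). Nid2 was the other call against WT, at 0.75 ± 0.16 (SE, edgeR adjusted p = 0.028). All 3 rises share the libraries in which Bgn and the summed mesangial markers were high. Leaving out LCDD replicates 1 or 2 or DH-LMP2A replicates 2, 3 or 4 ended the calls of Nid2 and Adamts1 against DH-LMP2A, with edgeR adjusted p of 0.0531 to 0.0888 and 0.0626 to 0.0984. The Nid1 call was also lost without LCDD replicate 4 or any 1 WT library, at edgeR adjusted p of 0.0513 to 0.145. Against WT, the Nid2 call ended without LCDD replicates 1 or 2 or WT replicates 2 to 5, and that of Adamts1 without LCDD replicates 1, 2 or 4, DH-LMP2A replicates 2 to 4 or WT replicates 3 to 5. Without all 3 single-mouse WT libraries, all of title code 4, the edgeR adjusted p was 0.404 for Nid2 and 0.634 for Adamts1. Both calls against WT also ended with a covariate of sex-linked transcripts, at edgeR adjusted p of 0.334 and 0.376. The log2 fold changes were then 0.79 and 1.17. With the tubule covariate the edgeR adjusted p was 0.0527 and 0.0569.

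Extl1, an exostosin-like glycosyltransferase that acts on heparan sulfate chains, fell in LCDD against DH-LMP2A. Its mean level and SD were 6.04 ± 2.64 CPM for LCDD (n = 4), 40.7 ± 19.0 CPM for DH-LMP2A (n = 4) and 12.4 ± 4.38 CPM for WT (n = 5). Every LCDD library, at 2.11 to 7.84 CPM, was below every DH-LMP2A library, at 18.9 to 64.0 CPM. It differed by -2.75 ± 0.46 (SE, edgeR adjusted p = 0.00891) on the log2 scale and was called under 27 of 27 alternatives. Against WT it was -1.04 ± 0.42 (SE, edgeR adjusted p = 0.315), and DH-LMP2A differed from WT by 1.71 ± 0.41 (SE, edgeR adjusted p = 0.0945), so the WT level lay between. With the title code as a block both differences from WT were called, at edgeR adjusted p of 0.0141 for LCDD and 0.00216 for DH-LMP2A. The chain-elongating enzymes Ext1 and Ext2 had log2 differences of 0.053 and -0.054 between LCDD and DH-LMP2A, with edgeR adjusted p of 0.88 and 0.906.

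With the title code as a block, 8 related genes were called higher and 6 lower in LCDD than in DH-LMP2A, where 3.24% of all tested genes were called higher and 2.86% lower. DESeq2 called 7 higher and 1 lower in that comparison, against 4.85% of all tested genes in either direction. Beside the 4 above, the higher ones with the block were the link protein Hapln1, the basement membrane collagen Col15a1, the versican-cutting proteases Adamts4 and Adamts5, and the integrin chain Itgb1. The lower ones were the cell surface proteoglycans Gpc1 and Tgfbr3, the heparan sulfate enzymes Hs3st3a1 and Sulf1, and the keratan sulfate sulfotransferase Chst1. Adamts5 gained 0.89 ± 0.19 (SE) on the log2 scale (edgeR adjusted p = 0.0247, against 0.052 without the block), and Chst1 dropped by 1.33 ± 0.19 (SE, edgeR adjusted p = 0.00534). None of the 11 tested genes for the linker and precursors shared by all chains was called by edgeR in either fit or by DESeq2, and 0 had an unadjusted p under 0.05 without the block, against 13.1% of all tested genes. With the block, the comparison of LCDD with WT gave 3 calls upward (Nid2, Adamts1 and Hapln3, a link protein) and 2 downward (Extl1 and Hs3st3a1) among the 99, where 3.20% of all tested genes were called. DH-LMP2A against WT gave 2 upward with the block (Extl1 and Chst1) and 3 downward (Col15a1, Adamts4 and the toll-like receptor Tlr2), where 3.36% of all were called. Without the block edgeR called 0 of the 99 there. In that fit 14 had an unadjusted p under 0.05, against 12.5% of all tested genes, and DESeq2 called 2 higher and 1 lower, against 2.74% of all.

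The scarcer members had other closest genes over the 13 libraries. They were Arhgap6 (Pearson r = 0.901) for Dcn, Rgs7bp (r = 0.937) for Aspn, Zfp677 (r = 0.921) for Ogn, Arhgap15 (r = 0.895) for Prelp, Cpe (r = 0.878) for Fmod and Mpp7 (r = 0.824) for Vcan. These genes had at most 202 counts in any library, so counting error takes a larger share of their values than of those of Bgn, Hspg2 and Agrn.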

How the data were processed

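Polyadenylated RNA of 13 glomerular libraries was sequenced from both ends, per the labels' protocols. The authors deposited raw read counts per gene and the summed exon length of each gene, in bases. STAR 2.4.0a, featureCounts (Subread 1.5.0-p3), DESeq2 and the builds mm10 and GRCm38 are named in the submitters' processing notes; how they were set is not given in the sources used here. Of 46958 genes, 44117 matched GENCODE M21 by symbol, and 99.84% of those overlapped its GRCm38 span. All count columns matched 1 sample each.

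Counts were analysed with edgeR 4.0.16 in R 4.3.3. The filter filterByExpr (minimum count 10, by genotype) kept 16738 genes and dropped 30220. TMM factors and 1 quasi-likelihood fit of all 13 libraries, with 1 coefficient per genotype, gave p-values, which were adjusted over all tested genes (Benjamini-Hochberg); a call is an adjusted p under 0.05. Each SE was obtained from the log2 fold change and its F statistic. Log2 CPM uses a prior count of 2. The floor of 3 counts, 0.0970 to 0.185 CPM by library, covers counting error only. The test was tried on simulated data.

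Deviations of LCDD and DH-LMP2A libraries of the same title code had correlations of 0.153 to 0.593 over 4 pairs (mean 0.421). The 12 pairs of different codes ran from -0.599 to 0.524 (mean -0.139), so the ranges overlapped. LCDD replicate 2 was closer to DH-LMP2A replicate 1 (0.524) than to its code partner (0.153), so the code pairs them only in part. Correlations with WT libraries of the same code went down to -0.165 and -0.159. The alternatives were DESeq2 1.42.0, RLE factors, no filter, only the genotypes compared, the code as a block, each library left out, no single-mouse WT libraries, sex and tubule marker covariates and an added log2 minimum of 1; 2 kinds of alternative on title codes were added after seeing the data. The genes, lists and tests were chosen with earlier results of these data known. Genes named are the 10 members, related genes called in a comparison, and the closest genes by Pearson r at a mean of 1 CPM or more; related genes called only with the block, the neighbours and Ext1 and Ext2 were chosen after their values were seen. Some genes that these rules would name are not reported here.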

Additional observations from a re-analysis of the deposited data

Results flagged for a closer look

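Among the members and the 4 called related genes, 39 groups of 4 or 5 libraries were examined for a library far from the rest of its genotype, and chance gives about 1.95 in such a number. The search found 1: Extl1 in LCDD replicate 1, at 1.13 in log2 CPM, where the other 3 LCDD libraries were at 2.84 to 2.99. The gap to the nearest of them was 0.918 of the range of the 4 libraries.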

How the results depend on the processing

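The number of members called in LCDD against DH-LMP2A was 1. It was 2 with DESeq2, with the tubule covariate and without the libraries of title code 1, and 0 with no filter, with only the 2 genotypes, without the single-mouse WT libraries and with the sex covariate. Leaving out 1 library gave 0 to 3. With the code as a replicate block it was 2, and leaving out codes 1, 2, 3 or 4 from that block fit gave 2, 0, 3 and 0. In LCDD against WT the count was 1 with DESeq2 and 0 otherwise, and in DH-LMP2A against WT it was 0 in every alternative run. Bgn was called in 12 of 27 alternatives, with log2 fold changes of 0.80 to 1.17 and edgeR or DESeq2 adjusted p of 0.00128 to 0.274. Ogn was called in 2 of 27, at -1.50 to -0.82. Aspn reached an adjusted p under 0.05 in 6 of 27, at -3.005 to -1.996. The counts of members called include Aspn, whose tests against DH-LMP2A are description only. Of 949 gene results under alternatives, 833 kept their direction and side of the threshold, 80 lost and 19 gained a call, and 17, none of them called, changed sign. For LCDD against DH-LMP2A these were Fmod with the replicate block (-0.059), without LCDD replicate 1 (-0.38), DH-LMP2A replicate 1 (-0.18) or code 1 (-0.64, and -0.65 with the block), and Hspg2 without LCDD replicate 2 (-0.30), DH-LMP2A replicate 4 (-0.033) or, with the block, code 2 (-0.18). Without 1 library Fmod ranged there from -0.38 to 0.25 and Hspg2 from -0.30 to 0.33. For LCDD against WT they were Agrn without LCDD replicate 1 (0.033) or WT replicate 2 (0.057) and with the tubule covariate (0.16), Hspg2 without LCDD replicate 4 (0.035), with ranges of -0.37 to 0.057 and -0.60 to 0.035 without 1 library, and Aspn without single-mouse libraries (0.12). For DH-LMP2A against WT they were Dcn without those libraries (-0.057) and with the tubule covariate (-0.072), Prelp without them (-0.016), and Agrn with the sex covariate (-0.16). For Extl1, LCDD against WT was called in 1 of 23 alternatives, the block (adjusted p = 0.0141), and DH-LMP2A against WT in 6 of 23, with adjusted p of 0.00216 to 0.619 over all 23. Over all genes, LCDD against DH-LMP2A gave 334 calls, with 812 by DESeq2, 213 with 2 genotypes, 1021 with the block, 1074 with the tubule covariate and 113 to 484 without 1 library. LCDD against WT gave 308, with 726 by DESeq2, 185 with 2 genotypes, 536 with the block, 33 with the sex covariate and 54 without single-mouse libraries. DH-LMP2A against WT gave 105, with 458, 562 and 17 by DESeq2, block and sex covariate, 899 with the tubule covariate and 29 to 407 without 1 library. Of the 99 related genes, DESeq2 called 4 higher and 0 lower in LCDD against WT (4.34% of all tested genes). The causes were not tested. Depth limits Lum, which could not be compared, and Aspn, with 3 to 12 counts per LCDD library.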
